A study of Mus musculus with 24 samples.

Results

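The genes described here handle adenosine outside the cell: Nt5e, Entpd1, Entpd3, Entpd8, Ada, Adora1, Adora2a and Adora2b, 8 of the 45616 gene names on a mouse expression array. They were read by 13 of its 56605 probes, found by matching each probe's accession to the gene symbol, and every probe of each gene was kept. The group was chosen by measured values of these same arrays: it was put together around Nt5e with the results of the 3 diet comparisons known, in each of which Nt5e passed the thresholds given below. Their diet differences are therefore given as a description, with no test.

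Outside the cell, ATP and ADP are stripped of phosphate by ectonucleoside triphosphate diphosphohydrolases such as CD39 (Entpd1), and the resulting AMP is cut to adenosine by CD73, the ecto-nucleotidase that Nt5e encodes. Adenosine is removed by adenosine deaminase (Ada) or by uptake, and acts through G protein-coupled receptors, of which Adora1 lowers cyclic AMP and Adora2a and Adora2b raise it. In the gut the pathway is known for damping inflammation and for regulating epithelial fluid secretion, and CD73 is studied in tumors for restraining T cells.

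Colon RNA of 24 C57BL/6J mice was measured, 1 mouse per array and 4 per group, to ask how a high-fat diet (HFD, 45 kcal% fat) compared with a diet low in fat (LFD, at 10 kcal%) in each sex or surgery. The groups were sham-operated males on either diet (M + LFD, M + HFD), sham-operated females (F + LFD, F + HFD) and ovariectomized females, which lack the main source of estrogen (F(OVX) + LFD, F(OVX) + HFD). All mice were bought at 7 weeks of age, ate their diet for 14 weeks and were given the colon carcinogen azoxymethane at 10 mg/kg, then 3 cycles of the colitis agent dextran sulfate sodium at 1.5% in the drinking water. They were killed 75 days after azoxymethane, and the methods include no healthy group and no group without these agents. The methods name 5 animals per group for the arrays and the labels give 4. Each sex or surgery lay on its own slide, with LFD in one row and HFD in the other, so diet and slide row, and sex or surgery and slide, cannot be told apart.

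Of the 8 genes, all but Adora2a matched a promoter in the RefSeq table of the mouse assembly GRCm38.p6. The promoters of Nt5e and Ada, from 250 bases before to 50 bases after the start of the transcript, are shown because these enzymes make and remove adenosine and had the highest and the lowest diet difference of the fitted members in males. The Nt5e window is chr9:88327359-88327658 on the plus strand and the Ada window is chr2:163750190-163750489 on the minus strand, both written 5′ to 3′. Capitals mark GGGCGG or its reverse complement CCGCCC, the Sp1 box.
Nt5e: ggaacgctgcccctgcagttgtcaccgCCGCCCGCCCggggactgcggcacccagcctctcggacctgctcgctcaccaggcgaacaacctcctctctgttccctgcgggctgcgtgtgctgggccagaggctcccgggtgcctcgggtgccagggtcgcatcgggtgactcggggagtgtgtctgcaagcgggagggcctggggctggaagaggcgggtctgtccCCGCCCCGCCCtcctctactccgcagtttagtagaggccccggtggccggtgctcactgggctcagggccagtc
Ada: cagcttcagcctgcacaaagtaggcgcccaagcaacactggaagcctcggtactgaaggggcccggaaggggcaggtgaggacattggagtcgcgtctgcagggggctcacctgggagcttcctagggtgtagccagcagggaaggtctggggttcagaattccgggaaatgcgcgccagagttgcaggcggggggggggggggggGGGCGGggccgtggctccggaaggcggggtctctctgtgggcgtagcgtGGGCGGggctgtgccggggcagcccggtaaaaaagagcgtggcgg

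The Nt5e window held 4 Sp1 boxes, all on the reverse strand, in 2 overlapping pairs, the nearer one beginning 24 bases before the start. The Ada window held 2 on the forward strand. Both windows were rich in G and C (71.0% for Nt5e and 68.0% for Ada, beside a median of 52.7% over 32851 promoters). Of all promoters, 35.7% held a Sp1 box, so its presence sets neither gene apart. Neither window held the hypoxia response element core ACGTG (19.6% of all promoters on either strand), the cAMP response element core TGACG (20.8%) or the TATA box TATAAA (13.6%), which says only that these letters are not in these windows.

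All levels are log2 of the processed spot signal after quantile normalization over the 24 arrays, which gives every array the same distribution of values. A step of 1 is therefore a doubling, and levels of different probes are not comparable. A probe was counted as detected where the scanner software called it well above background, as 40.5% to 61.9% of probes were per array. The brightest probe stood for its gene, and a diet comparison was fitted where all 4 arrays of at least 1 diet detected that probe. The thresholds of the study were used for calls, a difference of 1.5-fold or more with an unadjusted limma p under 0.05, and no gene passed a Benjamini-Hochberg adjusted p of 0.05 in any of the 3 comparisons. By limma 1250, 643 and 709 genes had an unadjusted p under 0.05 in males, females and OVX females. The methods' t-test likewise left no gene at that adjusted threshold.

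Hoxb13, which marks the distal colon that the methods name, was not well above background on M + LFD replicate 1 (2.18) and was low on M + LFD replicate 2 (5.04), against 12.58 to 14.79 on the other 22 arrays. The mean of 8 anterior Hox genes was 8.42 and 8.06 on those 2 arrays and at most 7.00 on every other array. F + LFD replicate 3 carried squamous keratin genes (mean of 9 markers 10.32, against 4.14 to 5.55 elsewhere). The 10 colonocyte and 6 goblet cell markers were well above background on all 24 arrays. Male differences of the fitted members are given with and without M + LFD replicates 1 and 2. In bulk tissue, fewer cells of a type and less RNA per cell cannot be told apart.

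Nt5e had the widest diet differences of the members that could be fitted. It was higher on HFD in males and lower on HFD in females and in OVX females, while Entpd1, Entpd8, Adora2a and, in females, Adora1 differed by no more than 0.40 on the log2 scale in any comparison. In males 1 of 5 fitted members was called higher and 0 lower, beside 2.50% of 20515 genes called higher and 1.80% called lower. In females 0 of 6 were called higher and 1 lower, beside 0.398% and 0.797% of 22085 genes. In OVX females 0 of 5 were called higher and 1 lower, beside 1.18% and 1.02% of 19211 genes. The called member was Nt5e each time, and since Nt5e was chosen for it, nothing is read from these counts.

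**Figure D1:**
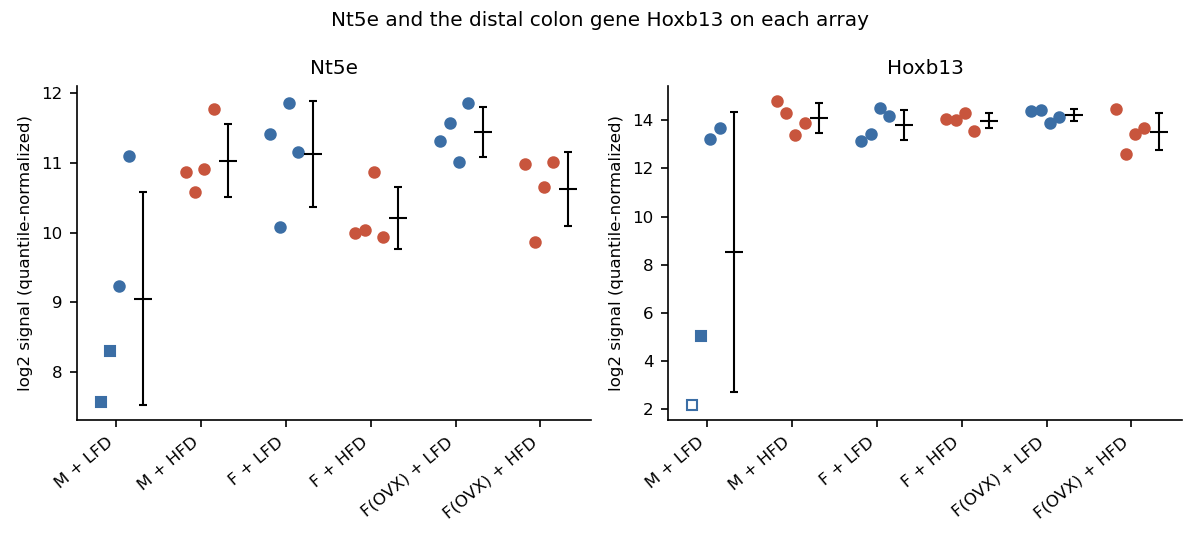
Log2 signal of Nt5e (left) and Hoxb13 (right) on each of the 24 arrays by group, with LFD in blue and HFD in red; the black bar is the mean with the SD of 4 arrays, squares are M + LFD replicates 1 and 2, and an open symbol is a probe not well above background. The 2 squares have the lowest Nt5e (7.57 and 8.30) and the lowest Hoxb13 (2.18 and 5.04) of all arrays.

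Entpd1 encodes CD39, found on immune and endothelial cells. Its brighter probe read 7.21, 7.44, 8.14 and 7.97 in M + LFD and 7.87, 8.04, 7.93 and 7.65 in M + HFD. The lowest values of all 24 arrays were those of M + LFD replicates 1 and 2, below the 7.50 to 8.93 of the other 22. The diet difference in males was 0.18 (SE 0.22) and became -0.18 without those 2 arrays. In females the 4 LFD arrays ran from 7.74 to 8.85 and the 4 HFD arrays from 7.97 to 8.93, a difference of 0.14 (SE 0.28). In OVX females they ran from 7.50 to 8.16 and from 7.71 to 8.12, a difference of -0.04 (SE 0.18). Thus no diet difference of Entpd1 was larger than its standard error, and the diets overlapped each time. Its dimmer probe, detected on 20 of 24 arrays, followed the brighter one only in part (Pearson r = 0.62 over 24 arrays) and differed by 0.25, 0.09 and 0.11.

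Entpd8 encodes a family member of the intestinal epithelium. On its brighter probe M + LFD read 12.27, 12.30, 11.24 and 11.51, so replicates 1 and 2 were here the higher pair of their group. M + HFD read 11.72, 11.43, 12.19 and 11.97. The male difference was 0.00 (SE 0.29) and 0.45 without M + LFD replicates 1 and 2. In females the LFD arrays read 12.21, 11.53, 11.74 and 11.66 and the HFD arrays 11.51, 11.43, 11.45 and 11.39. Every HFD value lay just below every LFD value, a difference of -0.34 (SE 0.16), under the fold threshold and not called. The second probe of Entpd8 moved with the first over the arrays (r = 0.89) and gave -0.48 in females, but there the diets overlapped. In OVX females the difference was -0.03 (SE 0.28) on the brighter probe and 0.26 on the other. The diets of 1 of the 6 fitted members did not overlap in females, beside 1.90% of all genes, of 1 of 5 in OVX females, beside 2.30%, and of 0 of 5 in males, beside 2.60%.

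Entpd3, a family member known from neurons, was at the edge of detection. Its probe was well above background on 12 of 24 arrays: 3 in M + LFD, 2 in M + HFD, 3 in F + LFD, 2 in F + HFD, and 1 in each OVX group. Values ran from 2.96 in F(OVX) + LFD replicate 3 to 6.21 in M + LFD replicate 2. No comparison was fitted, and the range of the group means, 1.61, came with an SD of up to 1.06 within a group.

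Nt5e encodes CD73, the enzyme that turns extracellular AMP into adenosine. Its single probe was detected on each of the 24 arrays. M + LFD read 7.57, 8.30, 9.24 and 11.10 and M + HFD read 10.87, 10.58, 10.91 and 11.78. Of the M + LFD arrays, 3 lay below every M + HFD array and replicate 4 lay among them. The mean was 9.05 ± 1.53 (SD, n = 4) on LFD and 11.03 ± 0.52 (SD, n = 4) on HFD, a difference of 1.98 (SE 0.69), or 3.945-fold. The LFD spread was the largest SD of any member in any group. Without M + LFD replicates 1 and 2, the arrays with low Hoxb13, the difference was 0.86 (SE 0.56) and Nt5e was no longer called. It was also not called without M + LFD replicate 2 alone (1.73) or without M + HFD replicate 4 (1.73).

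In females the direction was the opposite. F + LFD read 11.42, 10.08, 11.86 and 11.16, and F + HFD read 10, 10.04, 10.87 and 9.94. Of the F + LFD arrays, 3 were above all F + HFD arrays, and replicate 2 was level with the HFD arrays. The means were 11.13 ± 0.76 and 10.21 ± 0.44 (SD, n = 4 each), a difference of -0.91 (SE 0.38), 1.884-fold lower on HFD. Leaving out single arrays moved it between -1.26 and -0.67, and the call was lost without F + LFD replicates 1, 3 or 4 or F + HFD replicates 1, 2 or 4. F + LFD replicate 3, the array with squamous keratins, had the highest female value, and without it the difference was -0.67.

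In OVX females the diets did not overlap. F(OVX) + LFD read 11.31, 11.57, 11.02 and 11.86, and F(OVX) + HFD read 10.98, 9.87, 10.65 and 11.01. The gap between the lowest LFD array and the highest HFD array was the 0.01 between 11.02 and 11.01, so the diets touched. The means were 11.44 ± 0.36 and 10.63 ± 0.53 (SD, n = 4 each), a difference of -0.82 (SE 0.29), 1.762-fold lower on HFD. Leaving out single arrays moved it between -0.96 and -0.56, and the call was lost without F(OVX) + LFD replicate 4 or F(OVX) + HFD replicate 2. Whether the diet difference of Nt5e itself differed between males, females and OVX females was not tested, because Nt5e was chosen for these values.

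By group mean, Nt5e ran from F(OVX) + LFD (11.44) through F + LFD (11.13), M + HFD (11.03), F(OVX) + HFD (10.63) and F + HFD (10.21) to M + LFD (9.05). Each neighbouring pair in that order had overlapping ranges. The step from F + HFD to M + LFD, 1.16, was the widest and was smaller than the SD within M + LFD. Groups of different sex or surgery lay on different slides, which cannot be told apart from the groups.

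**Figure D2:**
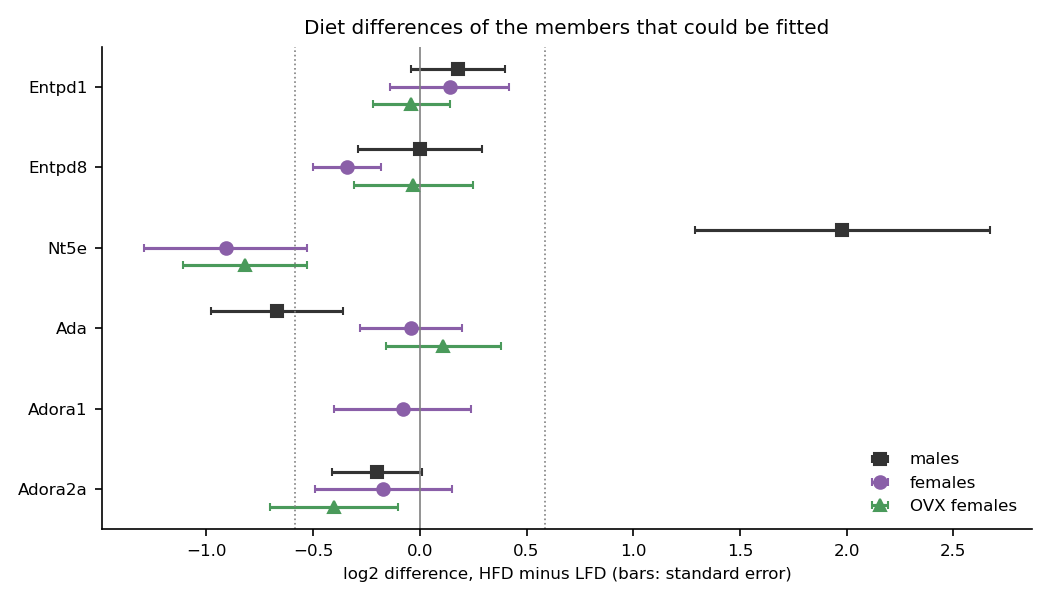
Log2 difference, HFD minus LFD, of each member that could be fitted, by comparison (squares males, circles females, triangles OVX females), with bars of 1 standard error and dotted lines at a fold change of 1.5. Nt5e lies beyond the lines in each comparison, at 1.98, -0.91 and -0.82, and Ada in males at -0.67.

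Ada encodes adenosine deaminase, which converts adenosine to inosine. Its brighter probe read 9.74, 10.22, 10.02 and 9.56 in M + LFD and 8.57, 9.63, 9.84 and 8.80 in M + HFD. M + HFD replicates 1 and 4 were the lowest of all 24 arrays, and replicates 2 and 3 lay within the LFD range. The difference in males was -0.67 (SE 0.31), past the fold threshold but not called. The second probe of Ada gave -0.70, and the mean of both gave -0.69 (SE 0.29), which was called. On the brighter probe Ada was also called in 1 fit of all 24 arrays (SE 0.29), with the replicate number as a block (SE 0.20) and without M + HFD replicate 2 (-0.82) or 3 (-0.88). In males same-numbered arrays did not deviate together, so that block rests on a pairing not seen there. Without M + LFD replicates 1 and 2 its difference was -0.58 (SE 0.41), not called. Nor was Ada called with scaling to the 75th percentile, normexp, either alternative detection filter or the methods' t-test. It was also not called with any single M + LFD array, or M + HFD replicate 1 or 4, left out. M + LFD replicates 1 and 2 were not outliers here, since their Ada values lay within the 8.57 to 10.45 of the other arrays. In females and OVX females the differences were -0.04 (SE 0.24) and 0.11 (SE 0.27). The ordering of the groups by Ada ended with M + HFD (9.21 ± 0.62, SD, n = 4), and the other 5 group means lay between 9.60 and 9.91, with overlapping neighbours throughout.

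Adora2a was the adenosine receptor with detected signal on all 24 arrays. It read 6.15, 6.57, 6.49 and 6.87 in M + LFD and 5.96, 6.54, 6.15 and 6.62 in M + HFD. It read 6.27, 6.28, 7.16 and 7.37 in F + LFD and 6.22, 6.29, 6.84 and 7.06 in F + HFD. It read 6.51, 6.15, 7.23 and 6.32 in F(OVX) + LFD and 6.37, 5.78, 5.74 and 6.73 in F(OVX) + HFD. The HFD mean was the lower one each time, with overlapping diets and differences of -0.20 (SE 0.21), -0.17 (SE 0.32) and -0.40 (SE 0.30), none of them called. The male difference was -0.36 (SE 0.25) without M + LFD replicates 1 and 2. In the female groups replicates 3 and 4 were high on both diets, and these same arrays carried more of the 8 T cell markers (mean 8.80 and 8.89 on LFD, 8.11 and 8.61 on HFD) than replicates 1 and 2 (at most 7.84). The 6 B cell markers were higher there too (mean 10.16 and 10.64 on LFD, 10.07 and 9.53 on HFD, against at most 9.08). So were the 7 macrophage markers within each diet (11.42 and 10.57 on LFD against at most 9.81, 10.60 and 9.77 on HFD against at most 9.68). In every group but M + LFD, the array with the highest T cell mean also had the highest Adora2a. In M + LFD the T cell mean was highest on replicate 2 (8.37) and Adora2a on replicate 4, where the T cell mean was 7.92. The part of these cells in the Adora2a level was not tested.

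Adora1 had 3 probes, of which the brightest was well above background on 20 arrays, including all 8 female arrays. F + LFD read 5.76, 5.49, 6.16 and 6.81 and F + HFD 5.54, 5.73, 6.09 and 6.55, a difference of -0.08 (SE 0.32). The female group means (6.05 and 5.98) were the highest of the 6 groups, the others lying between 5.02 and 5.44, yet the ranges of neighbouring groups overlapped. The second Adora1 probe was well above background on 2 arrays alone, M + LFD replicates 1 and 2 (3.51 and 3.84), and the third probe on none. The level on those 2 arrays was too low to bound a fold change against M + HFD.

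Adora2b, the receptor with the lower affinity for adenosine, was detected on 4 of 24 arrays. These were M + LFD replicates 1 and 2 (3.95 and 4.24) and F + LFD replicates 1 and 2 (4.10 and 5.71). No HFD array and no OVX array detected it, and its other values ran from 2.07 to 4.46. The undetected 4.46, on F(OVX) + LFD replicate 3, lay above the detected 3.95, 4.10 and 4.24. That array had 40.5% of all probes detected, against 61.85% and 60.89% on M + LFD replicates 1 and 2. Detection of Adora2b is therefore not read as a diet difference. The lowest signal called well above background averaged 4.26 over the M + HFD arrays and 4.55 over the F + HFD arrays, above the LFD means of Adora2b (3.54 and 3.85), so no fold change is given.

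**Figure D3:**
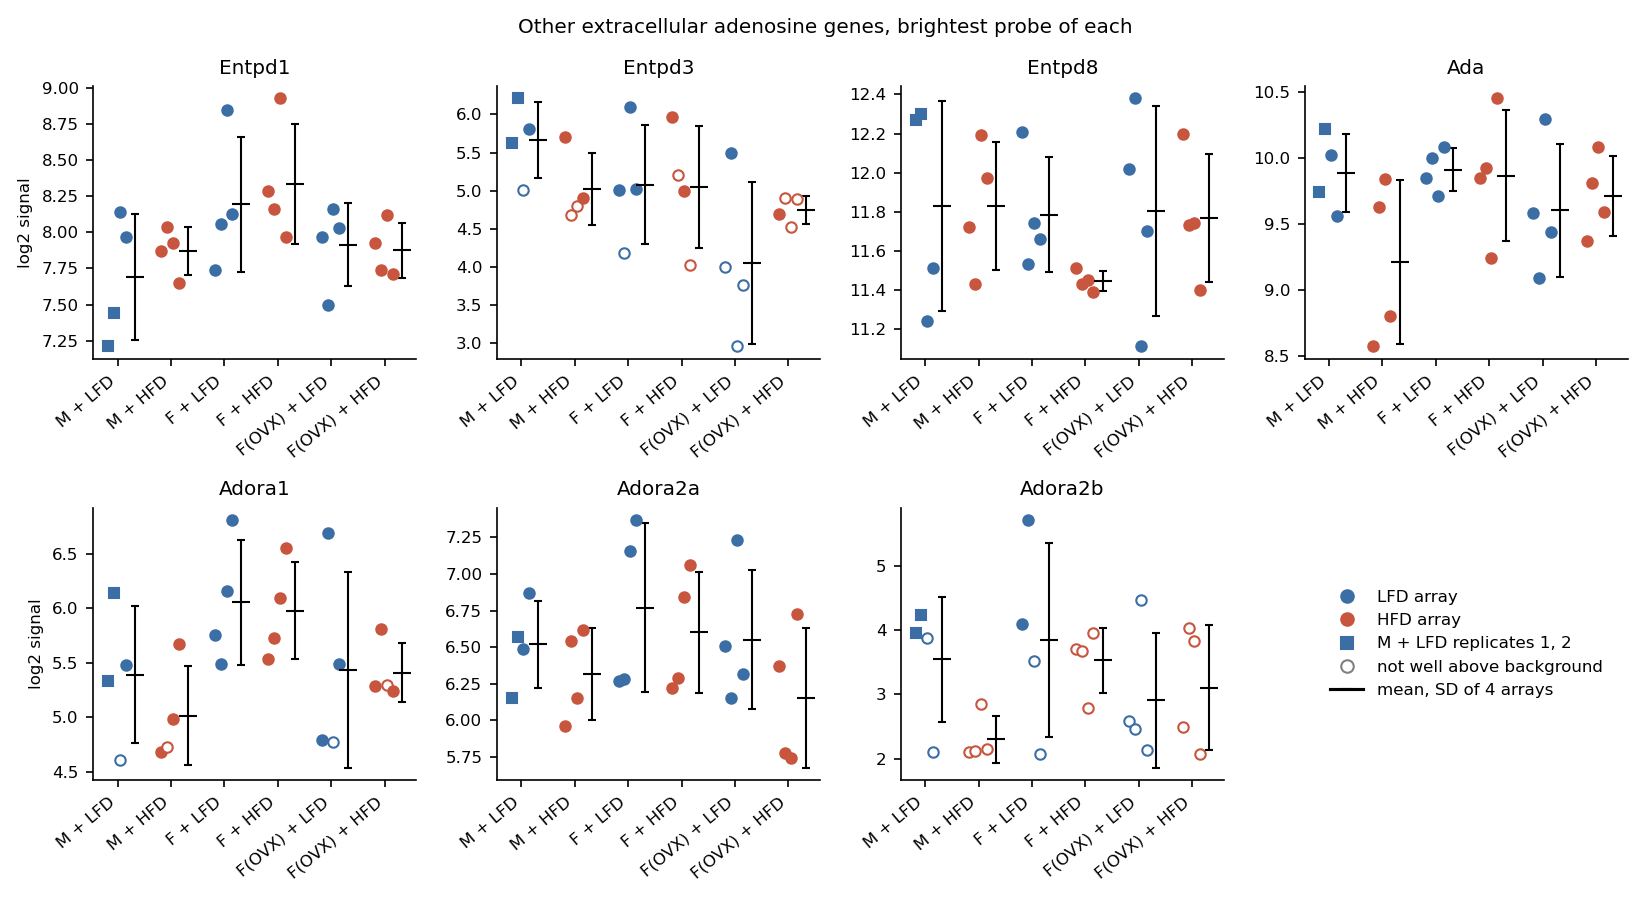
Log2 signal of the brightest probe of each other member on each array by group, with LFD in blue and HFD in red; open symbols are not well above background, squares are M + LFD replicates 1 and 2, and black bars are the mean with the SD of 4 arrays. Axes differ between panels. The 4 filled symbols of Adora2b are all LFD arrays, which is not read as a diet difference.

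Across arrays of the same group, Nt5e varied together with a set of genes. After the mean of each group was subtracted, the 5 genes most like Nt5e among 16829 genes detected on all 24 arrays were Gpr137b-ps (r = 0.93), Gpr137b (0.91), Adam15 (0.90), Ano1 (0.90) and Ly6g6e (0.90). Gpr137b-ps and Gpr137b are a near-identical pair whose probes may share signal. Adam15 encodes a membrane metalloprotease, Ano1 a calcium-activated chloride channel and Ly6g6e a small surface protein. Without the 2 arrays farthest in Nt5e, M + LFD replicates 4 and 1, the 5 correlations were 0.82 to 0.89, and over the 20 arrays outside M + LFD 0.82 to 0.88. They were picked as the highest and are a description without a test.

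Of the other members, Ada ran against Nt5e within groups (r = -0.43, Spearman rho = -0.56), and the relation was -0.55 without the 2 farthest arrays. Entpd1 (r = 0.45) and Adora2a (0.39) ran loosely with it, and without the 2 farthest arrays these were 0.33 and 0.29. For Entpd8 r was -0.15, and the sign turned without the 2 farthest arrays (0.14) and without M + LFD (0.34). Ranked among 16829 genes from the highest r down, Entpd1 stood at 2058, Adora2a at 2834, Entpd8 at 10855 and Ada at 14772. Many other genes thus ran more closely with or against Nt5e than these members.

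Among 12 marker lists, the mean of 6 fibroblast markers was the one most like Nt5e within groups (r = 0.70, rho = 0.78, and 0.80 without the 2 farthest arrays), followed by 7 macrophage markers (r = 0.68) and 6 distal Hox genes (r = 0.65). All 6 fibroblast and 7 macrophage markers were well above background on all arrays. The fibroblast mean ran from 10.71 to 11.52 in M + LFD and 11.13 to 11.86 in M + HFD, from 10.81 to 12.57 and 11.06 to 12.49 in females, and from 10.72 to 11.88 and 10.81 to 11.44 in OVX females, on LFD and HFD. Its diet differences were 0.29 in males (-0.06 without M + LFD replicates 1 and 2), -0.07 in females and -0.08 in OVX females. They had the sign of those of Nt5e in each comparison of all 8 arrays. In females and OVX females they were small beside the ranges of the arrays, so little is read from that sign. The macrophage mean ran from 9.19 to 10.14 and 9.55 to 10.06 in males, 9.54 to 11.42 and 9.45 to 10.60 in females, and 9.90 to 10.29 and 9.42 to 9.86 in OVX females. Its diet differences were 0.13 in males (-0.13 without M + LFD replicates 1 and 2), -0.45 in females and -0.46 in OVX females, where the diets did not overlap, and had the sign of those of Nt5e in each comparison of all 8 arrays. The distal Hox mean, of which no gene was detected on all 24 arrays, ran from 2.74 to 6.33 on LFD and 5.54 to 9.48 on HFD in males. It ran from 5.42 to 9.20 and 6.0 to 9.31 in females and from 5.67 to 8.67 and 5.43 to 6.08 in OVX females. Its diet differences, 2.71 in males (1.41 without M + LFD replicates 1 and 2), 0.48 in females and -1.41 in OVX females, had the sign of those of Nt5e in males and OVX females. The mean of 9 squamous markers was less like Nt5e within groups (r = 0.37). Its diet differences (0.71, -1.29 and -0.11) also had the sign of those of Nt5e in each comparison. The part of cell makeup and of position along the colon in the Nt5e differences was not tested.

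**Figure D4:**
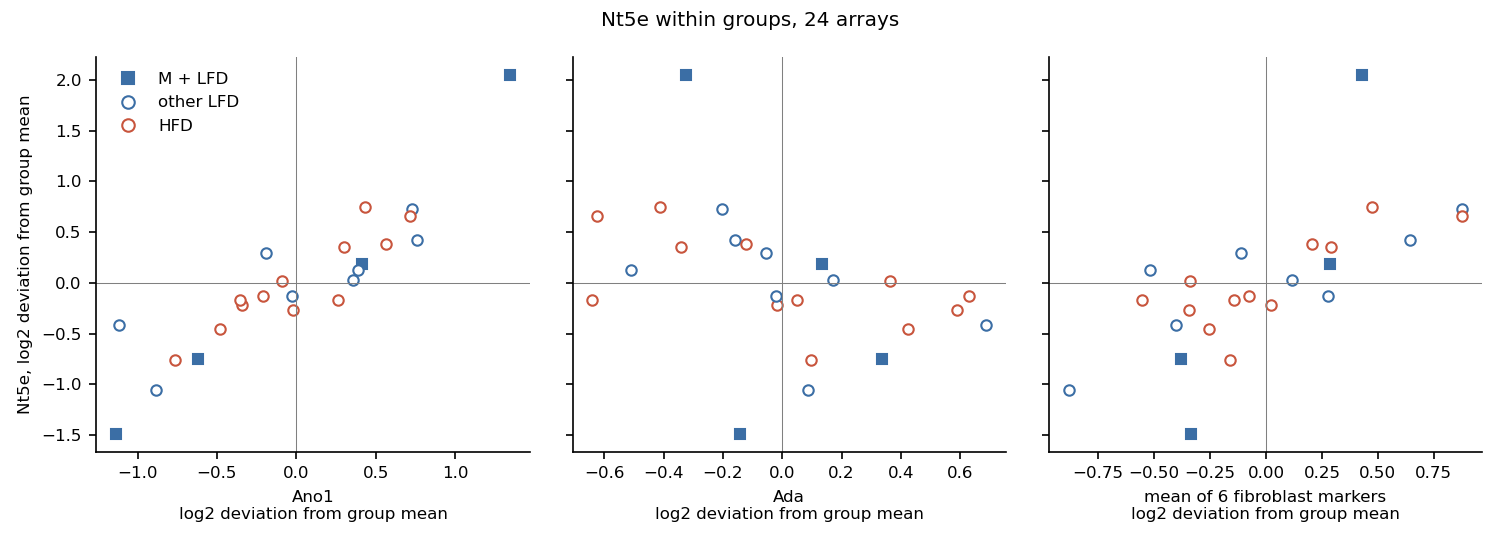
Log2 deviation of Nt5e from its group mean on each of the 24 arrays (vertical axis) against that of Ano1, of Ada and of the mean of 6 fibroblast markers (horizontal axes); filled squares are M + LFD, open circles the other groups, LFD blue and HFD red. Nt5e rises with Ano1 (r = 0.90) and the fibroblast mean (r = 0.70) and falls with Ada (r = -0.43).

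The rest of the purine pathway was followed in 63 further genes of ATP release, ectonucleotidases, adenosine transport, turnover inside the cell and ATP receptors. In males, 49 could be fitted and 0 were called higher and 2 lower, beside 2.50% and 1.80% of all genes. Entpd5, an endoplasmic reticulum relative of CD39, read 11.80, 11.61, 10.66 and 10.69 in M + LFD and 10.12, 10.44, 11.03 and 10.05 in M + HFD. Its difference was -0.78 (SE 0.33, limma adjusted p = 0.804). P2ry1, an ADP receptor, read 10.91, 10.41, 10.69 and 10.42 on LFD and 10, 9.56, 10.28 and 10.22 on HFD, without overlap. Its difference was -0.59 (SE 0.20, limma adjusted p = 0.801). Without M + LFD replicates 1 and 2 neither was called, with differences of -0.26 (SE 0.30) for Entpd5 and -0.54 (SE 0.25) for P2ry1. Then 2 other genes were called higher, the ATP and UTP receptor P2ry2 (0.83) and the transporter Slc29a4 (0.63). Of all genes, 868 of 20587 were then called in either direction, so nothing is read from these 2. The median difference of the 49 genes was -0.01, beside 0.010 over all genes.

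In females, 52 of the 63 could be fitted, 0 were called and 0 had an unadjusted p under 0.05 by limma, and the methods' t-test called 0. With the replicate number as a block, which pairs the female arrays, 2 were called lower, beside 587 of 22085 genes called in either direction. They were P2ry13, an ADP receptor (-0.84, SE 0.21), and Slc28a3, a nucleoside transporter (-0.59, SE 0.18). Nothing is read from this count. The median difference of the 52 genes was 0.02. In OVX females, 45 could be fitted and 3 were called higher and 0 lower, beside 1.18% and 1.02% of all genes, at a median of 0.10 beside 0.011 over all genes. Adk, the kinase that turns adenosine back into AMP inside the cell, read 9.68, 9.77, 8.89 and 9.48 on LFD and 9.92, 10.64, 10.11 and 10.11 on HFD, without overlap. Its difference was 0.74 (SE 0.23, limma adjusted p = 1). Alpi, intestinal alkaline phosphatase, whose probe may share signal with close relatives, read 5.18, 4.90, 6.41 and 4.68 on LFD, the last not above background. It read 6.12, 8.27, 7.60 and 6.46 on HFD, a fitted difference of 1.82 (SE 0.53, limma adjusted p = 1), and 0.88 with normexp background correction. P2rx2, an ATP-gated channel, read 4.92, 4.98, 4.69 and 4.69 on LFD, where 2 of the 4 were above background, and 5.24, 7.61, 6.06 and 5.78 on HFD. Its fitted difference was 1.35 (SE 0.44, limma adjusted p = 1), and 0.88 without F(OVX) + HFD replicate 2 and 0.67 with normexp background correction. Alpi and P2rx2 passed the detection filter only through HFD, the diet on which they were high, so their differences are not exact and their calls add no support. Neither was called in 1 fit of all 24 arrays, and of the 3 genes Adk alone was called among probes detected on all arrays. Adk in turn lost its call once F(OVX) + LFD replicate 3 was left out, at a difference of 0.55, under the fold threshold. This array read the lowest Adk of its group (8.89) and had the smallest share of probes detected of all 24 arrays (40.5%).

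These 5 genes were picked for a call in 1 comparison, so no difference between the comparisons is drawn from them. In Alpi, Entpd5, Adk and P2rx2 the highest values of all 24 arrays were those of M + LFD replicates 1 and 2: for Alpi 10.36 and 10.06 against at most 8.27, for Adk 11.02 and 10.76 against at most 10.64. Nt5e and Entpd1 stood at the other end on the same 2 arrays, below the other 22.

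**Figure D5:**
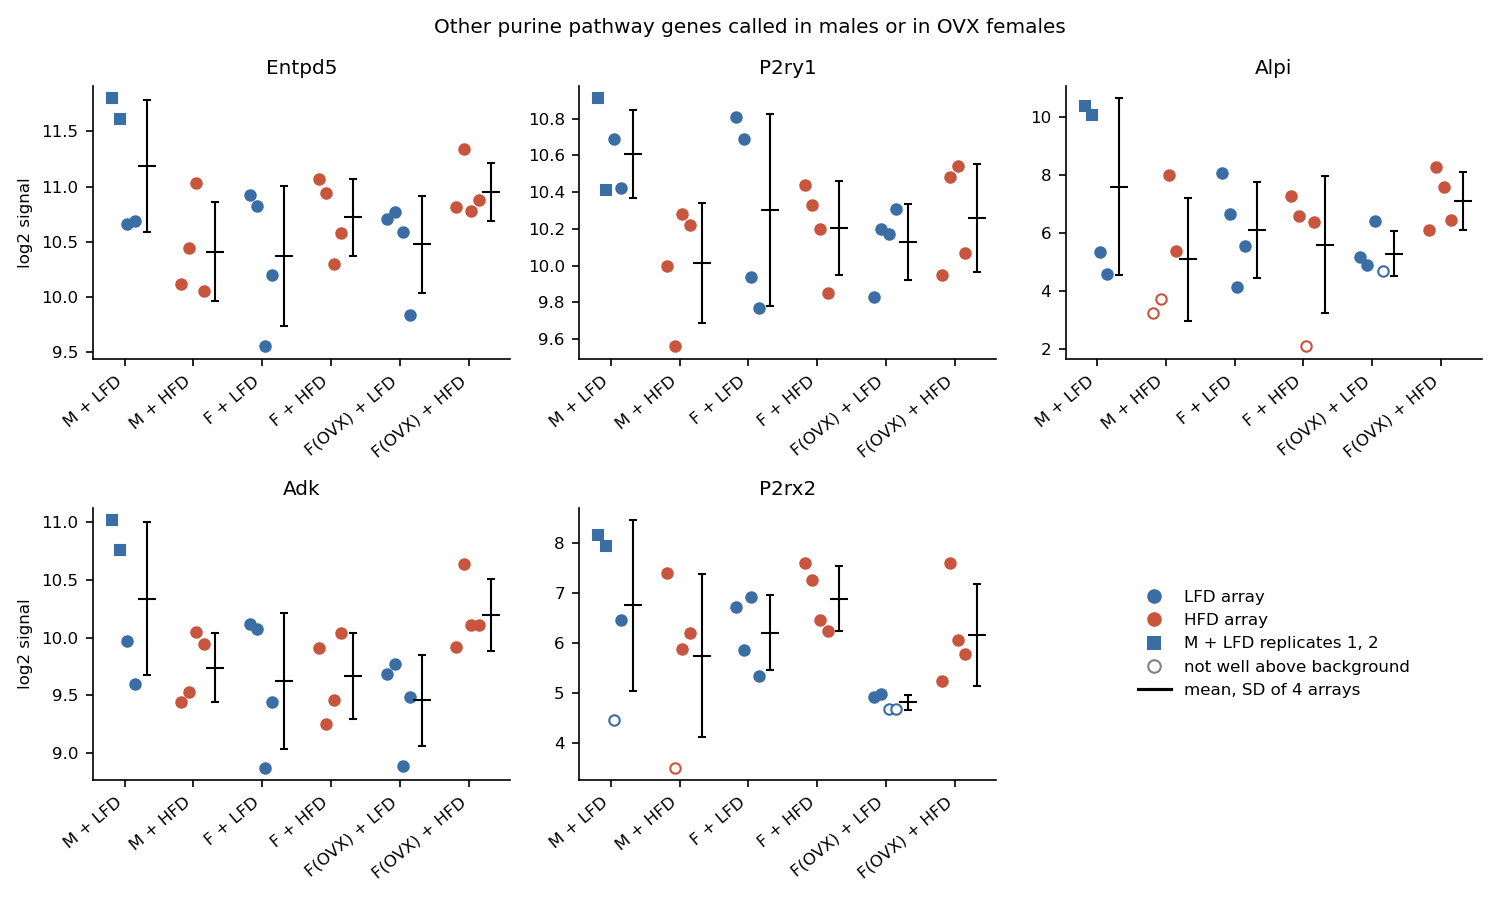
Log2 signal on each array of the 5 further purine pathway genes called in males (Entpd5, P2ry1) or OVX females (Alpi, Adk, P2rx2), drawn as in the plots of the members, with open symbols not well above background. The squares, M + LFD replicates 1 and 2, are the highest arrays for Entpd5, Alpi, Adk and P2rx2.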

How the data were processed

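Colon RNA of 24 mice was hybridized by the authors to Agilent 1-color mouse arrays, and spots were extracted with Feature Extraction 11.0.1.1. They deposited linear spot intensities, from which background had been subtracted array by array without normalization between arrays, beside flags of detection, saturation and outliers. Per array 62976 spots were read, of which 59305 were not controls, and 0 were saturated. Outlier spots were set to missing and spots of 1 probe averaged. Of 56605 probes, 32994 (58.3%) were given a symbol by unversioned accession. Coordinates are those of GRCm38.p6, and the array's own annotation uses another assembly. Signals were log2-transformed and quantile-normalized over 24 arrays. Each diet comparison was fitted on its 8 arrays with limma 3.58.1 in R 4.3.3, and was tested on simulated data. Groups and replicate numbers came from the labels. Each p-value sets a difference against the spread between arrays of a group, 1 mouse per array. That spread holds differences between mice, between pieces of tissue and between arrays alike. Precision is limited by the 4 arrays per group.

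The 8 genes and the lists were chosen with earlier results of these data known. Further genes were named where a listed pathway gene was called, or as the 5 most like Nt5e. Within females every same-numbered pair of arrays deviated together (r = 0.23 to 0.51), which in males (-0.22 to 0.06) and OVX females (-0.08 to 0.31) they did not. On every slide the replicate number was also the column of the array, so a pairing by number and the column cannot be told apart. Alternatives were scaling to the 75th percentile, normexp (offset 50) on the median signal, both detection filters, the mean over probes, 1 fit of 24 arrays, a replicate block, the methods' t-test and leaving out arrays.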

Additional observations from a re-analysis of the deposited data

Results flagged for a closer look

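Of 32 groups of 4 arrays in which a member was detected on every array, 1 held an array far from the other 3. Nt5e read 10.87 on F + HFD replicate 3, and the nearest of the other 3 arrays read 10.04. The gap was 0.90 of the range of the group, above Dixon's critical value for 4 samples. Chance gives such an array in about 1 of 20 groups. Without this array the female difference of Nt5e was -1.13.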

How the results depend on the processing

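Of Nt5e, the direction was the same under every alternative in each comparison: 0.86 to 2.66 in males, -1.26 to -0.67 in females and -0.96 to -0.56 in OVX females. Single arrays left out gave 1.48 to 2.66, -1.26 to -0.67 and -0.96 to -0.56. Its call was kept under 14 of 17, 7 of 16 and 13 of 16 alternatives. Nt5e was chosen for that call, so these counts are a description and add no support. In 1 fit of all 24 arrays it was not called in females or OVX females, and in females also with no filter on dim probes or by the methods' t-test. With the replicate number as a replicate block, which pairs the arrays of females, the differences were 1.98 (SE 0.43), -0.91 (SE 0.25) and -0.82 (SE 0.26). Without M + LFD replicates 1 and 2, Entpd1 in males moved from 0.18 to -0.18 and Entpd8 from 0.00 to 0.45. The further pathway genes called in males, 2 as reported, numbered 0 with scaling to the 75th percentile, 1 with normexp or the methods' t-test, 4 in 1 fit of all 24 arrays, 3 with the replicate block and 0 to 6 without single arrays. In females, 0 as reported, they numbered 2 with the replicate block (P2ry13 and Slc28a3) and 0 to 2 without single arrays. In OVX females, 3 as reported, they numbered 1 with probes detected on all arrays or 1 fit of all 24 arrays, 5 with the replicate block and 2 to 5 without single arrays. Over all genes, calls in females, 88 higher and 176 lower as reported, numbered 587 in all with the replicate block and 80 with normexp. Without single arrays they numbered 163 to 733. In males, 512 higher and 370 lower, they numbered 889 with scaling to the 75th percentile, 567 with normexp and 489 by the methods' t-test. They numbered 1047 in 1 fit of all 24 arrays, 960 with the replicate block and 584 to 1510 without single arrays. In OVX females, 226 higher and 195 lower, they numbered 319 of 16830 with probes detected on all arrays. They numbered 251 in 1 fit of all 24 arrays, 555 with the replicate block and 218 to 708 without single arrays. The cause of these changes was not tested. Signal over background limits Entpd3, Adora1 and Adora2b.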
